A study of Mus musculus with 6 samples.

Results

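The cadherins and protocadherins described here are the genes whose symbols consist of Cdh or Pcdh and a number or start with Pcdha, Pcdhb or Pcdhg. *Cdh5* and *Cdh19*, which mark endothelial and Schwann cells, were left out. The RefSeq gene table lists 90 such genes, and 67 of them had a probe named by a RefSeq transcript, among 45616 genes and transcripts tested on the array. Of the 67, 50 were measured, meaning that in at least 1 population all 3 arrays had a probe well above its local background. The 3 clusters of protocadherin genes were covered unequally, with 7 of 14 Pcdha, 22 of 22 Pcdhb and 6 of 22 Pcdhg genes on the array, while all 32 other members were on it.

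Islet cells came from P1 pups (postnatal day 1) of the genotype *Wnt4eGFPCre; mTmG*, in which *Wnt4* tm2(EGFP/cre)Svo, a knock-in of EGFP and Cre at the *Wnt4* locus, was combined with the reporter allele tm4(ACTB−tdTomato,−EGFP)Luo at *Gt(ROSA)26Sor*. Cells of these pups carry membrane tdTomato until Cre switches them and their progeny to membrane GFP (mGFP). FACS of dissociated islets separated mGFP+ cells, called Wnt4hi, from mGFP− cells, called Wnt4low, from islets pooled over 3 or 4 pups a sample. The series design gives 1 genotype for both populations, whereas a legend of the study names the Wnt4low side *Wnt4eGFPCre* Tg−, so whether all Wnt4low cells carry the knock-in is not settled. Wnt4hi here means a history of *Wnt4* transcription, not its level at the time of the sort, and the sort as described used mGFP and no marker of an endocrine cell type. There were 3 arrays of 1 color for each population, Wnt4hi replicates 2, 3 and 4 and Wnt4low replicates 1, 3 and 4, all on 1 slide. Whether a Wnt4hi and a Wnt4low sample share a pool of pups is not given in the labels. *Wnt4* itself was higher in Wnt4hi cells, at a log2 intensity of 10.83 ± 0.34 (SD, n = 3) against 9.76 ± 0.40 (SD, n = 3).

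Cadherins are calcium-dependent adhesion proteins that span the membrane and bind their like on a neighbouring cell through repeated extracellular cadherin domains. Classical cadherins hold catenins on their cytoplasmic tail and thereby reach the actin cytoskeleton, and E-cadherin and N-cadherin join the endocrine cells of the islet. Non-clustered protocadherins, most of them δ-protocadherins, lack the catenin site and act in cell sorting and motility. The genes of the α, β and γ clusters lie in tandem on mouse chromosome 18, and in neurons each cell switches on a few of them.

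Differences are given as the log2 intensity of Wnt4hi minus that of Wnt4low, with the standard error (SE) of limma's fit, and the probe of highest mean intensity stands for each gene. At an unadjusted p of 0.05, the threshold of the study's methods, 2 of the 67 members rose in Wnt4hi cells (2.99%, against 5.06% of all features) and 7 fell (10.4%, against 5.53% of all features). The 2 were *Cdh1* and *Pcdh8*, and the 7 were *Cdh3*, *Pcdh17*, *Pcdh18*, *Pcdh20*, *Pcdhb4*, *Pcdhb20* and *Pcdhb21*. After Benjamini-Hochberg adjustment over all features, 1 member passed, *Pcdh8* (1.49%, against 0.441% of all features). For 4 members all Wnt4hi arrays lay above all Wnt4low arrays (5.97%, against 9.63% of all features), and for 9 they lay below (13.4%, against 6.44%). The 9 include dim members that were not measured, namely *Cdh17* (−0.11), *Pcdhb13* (−0.14) and *Pcdhb21*, the last also among the 7 that fell. The shares over all features include dim probes too. The median difference was −0.085 over the members, 27 of them above 0 and 40 below, and 0.073 over all features. With dim probes left out, which keeps the 50 measured members, the members' median was 0.0095, which turns its sign, and that of all features 0.0908. With 3 arrays against 3, an exact two-sided permutation test cannot give a p below 0.1, and a p above the threshold does not show that a gene was alike in the populations. Each of the 41 genes named below that did not pass moved by more than 1.5 times when some 1 array was left out, and 16 of them turned sign in such a setting. Many of these differences are small, where a slight shift is enough for either, so these counts do not measure how stable the values are.

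The sorted populations differed in markers of other cell types, and the values of their markers apply to every difference given here. All 12 endothelial markers were below 0, 11 of them past the unadjusted threshold, with a summed intensity of 5256 to 7132 in Wnt4hi and 37072 to 68231 in Wnt4low arrays. All 12 were well above background on at least 1 Wnt4low array, and 2 were well above background on 0 of the Wnt4hi arrays. The left-out endothelial cadherin *Cdh5* differed by −3.58 (SE 0.31, adjusted p = 0.0253). Of 12 mesenchyme and pericyte markers 7 fell, with sums of 42182 to 73232 in Wnt4hi and 89055 to 116272 in Wnt4low. Of 8 leukocyte markers 5 fell, and of 6 neuron markers 3 fell. Among markers of Schwann cells 1 of 7 fell, of duct 1 of 7, of acinar cells 1 of 8, of erythroid cells 2 of 5 and of proliferation 4 of 6, and 0 of these rose. Of 8 β-cell markers 5 rose, among them *Ins2* by 0.56, of 5 α-cell markers 3 rose, and of 6 other endocrine markers 4 rose and 2 fell. *Gcg*, which marks α-cells, was well above background on all 6 arrays. The part of these cell types in the differences below was not tested, and in these bulk samples fewer cells of a type and less RNA per cell cannot be told apart.

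**Figure D1:**
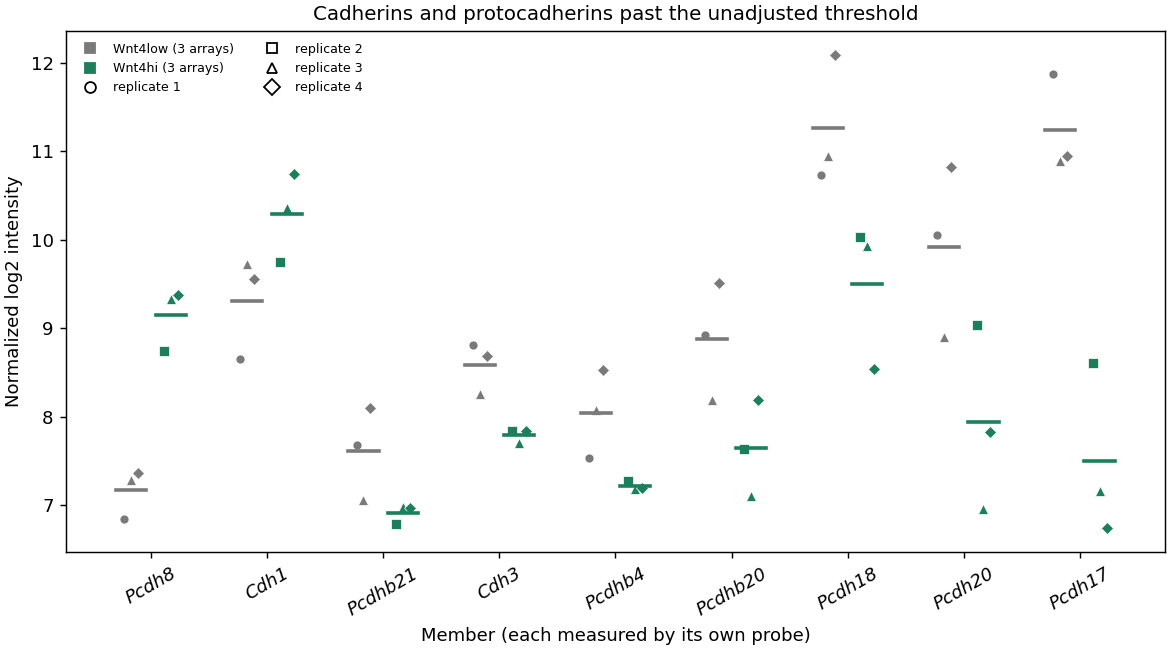
Normalized log2 intensity (vertical axis) of the 9 members past the unadjusted threshold on each array, in grey for Wnt4low and green for Wnt4hi, with the marker shape giving the replicate number and a line at the mean of 3 arrays. The arrays of *Pcdh8* and *Pcdh17* lie far apart between the populations, while those of *Pcdh20* and *Pcdhb20* overlap.

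The δ-protocadherins held both the largest rise and the largest fall among the members. *Pcdh8*, paraxial protocadherin, which controls cell sorting in the early mesoderm, was at 8.74, 9.33 and 9.38 on the Wnt4hi arrays and at 6.84, 7.29 and 7.36 on the Wnt4low arrays. It was well above background on all 3 Wnt4hi arrays and on 0 of the Wnt4low arrays, which makes it at least 3.37-fold higher in Wnt4hi cells. The measured difference was 1.98 (SE 0.24, adjusted p = 0.0439). A second probe of *Pcdh8* was well above background on 0 of the 6 arrays and differed by 0.47. *Pcdh8* kept its unadjusted call in all 20 alternative settings, with differences from 1.22 for the mean of its probes to 2.56 with the processed intensity, but its adjusted call in 8, and it lost the latter without any single array, where between 0 and 9 of all features passed.

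*Pcdh17*, a protocadherin of synapses and axons in the brain, was at 11.87, 10.89 and 10.95 on the Wnt4low arrays and at 8.60, 7.16 and 6.74 on the Wnt4hi arrays. The populations did not overlap, and only 1 of the 3 Wnt4hi arrays was well above background. It fell by 3.74 (SE 0.53, adjusted p = 0.0631) as measured, the largest measured difference of any member, with only an upper limit on its level on the other 2 Wnt4hi arrays. On the same arrays *Cdh5* differed by −3.58 and the endothelial markers by a median of −3.46, and their part in the fall of *Pcdh17* was not tested. The adjusted p of *Pcdh17* ranged from 0.0221 to 0.357 over the alternatives.

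*Pcdh18*, whose cytoplasmic tail binds the adaptor Disabled, was at 10.74, 10.95 and 12.09 on the Wnt4low arrays and at 10.03, 9.93 and 8.54 on the Wnt4hi arrays. It fell by 1.76 (SE 0.53, adjusted p = 0.295), without overlap. The mesenchyme and pericyte markers differed by a median of −1.15 on these arrays. The call of *Pcdh18* was lost in an unpaired test without moderation, which the study names for its other assays and not for the arrays. The other δ-protocadherins did not pass. *Pcdh1* differed by −0.46 (adjusted p = 0.618), and by −0.26 without Wnt4hi replicate 4 and −0.30 without Wnt4low replicate 1. *Pcdh7* differed by −0.57 (adjusted p = 0.646), which passed the unadjusted threshold without Wnt4low replicate 3 (−0.86) and shrank to −0.23 without Wnt4low replicate 1. *Pcdh9* was at 9.38, 8.98 and 7.32 on the Wnt4hi arrays and between 7.67 and 8.00 on the Wnt4low arrays, so that Wnt4hi replicate 4 lay below all the Wnt4low arrays. Its difference was 0.69 (adjusted p = 0.754), and without that array it was 1.31 and past the unadjusted threshold. Without Wnt4hi replicate 2 it was 0.28, and in the authors' values 0.07. *Pcdh10*, which recruits the actin regulator Nap1 to cell contacts, stayed between 7.91 and 8.48 on the 6 arrays, and *Pcdh19*, the gene of an X-linked epilepsy, between 7.93 and 8.83 on the probe that stands for it, while another of its probes moved further.

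Of the remaining non-clustered protocadherins, *Pcdh20* was at 10.05, 8.90 and 10.82 on the Wnt4low arrays and at 9.03, 6.95 and 7.82 on the Wnt4hi arrays. Wnt4hi replicate 2 lay above the lowest Wnt4low array, so that the populations overlapped. It fell by 1.99 (SE 0.67, adjusted p = 0.36). This call was lost without Wnt4hi replicate 3 (−1.50) or 4 (−1.93), without Wnt4low replicate 1 (−1.92) or 4 (−1.54), and in the unpaired test without moderation. *Pcdh12*, a protocadherin of endothelial cells, differed by −0.23 and *Pcdh15*, a part of the tip links of hair cells, by 0.22 on the probes that stand for them, and both had another probe that moved much further, as described with the probes.

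The 250 bases before the transcription start are shown for 5 protocadherins with some of the largest differences, picked after their values were seen. *Pcdh8* and *Pcdh15* (by 1 of its probes) rose and the other 3 fell, while the probe that stands for *Pcdh15* differed by 0.22. *Pcdh12*, with a second probe at −2.69, had no window searched, so these 5 do not compare genes that rose with genes that fell. Windows of these 250 bases were taken from RefSeq on GRCm38.p6. They were searched for the TATA box (TATAAA or its reverse TTTATA) and for the E-box that repressors of *Cdh1* bind (CAGGTG or CACCTG). The windows are chr14:79771313-79771562 (minus strand) for *Pcdh8*, chr10:73821617-73821866 (plus) for *Pcdh15*, chr14:84443313-84443562 (plus) for *Pcdh17*, chr3:49757317-49757566 (minus) for *Pcdh18* and chr14:88471397-88471646 (minus) for *Pcdh20*. Each is written 5′ to 3′ along the gene, and capitals mark a match.
Pcdh8: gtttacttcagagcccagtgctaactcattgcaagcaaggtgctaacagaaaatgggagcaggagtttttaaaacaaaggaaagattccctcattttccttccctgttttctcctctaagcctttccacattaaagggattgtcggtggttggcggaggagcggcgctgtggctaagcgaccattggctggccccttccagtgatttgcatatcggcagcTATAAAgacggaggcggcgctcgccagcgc
Pcdh15: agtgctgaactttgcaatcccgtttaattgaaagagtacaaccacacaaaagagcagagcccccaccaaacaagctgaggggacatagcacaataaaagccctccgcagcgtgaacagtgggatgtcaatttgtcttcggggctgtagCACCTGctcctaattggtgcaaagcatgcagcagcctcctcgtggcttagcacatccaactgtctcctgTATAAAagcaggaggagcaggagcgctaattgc
Pcdh17: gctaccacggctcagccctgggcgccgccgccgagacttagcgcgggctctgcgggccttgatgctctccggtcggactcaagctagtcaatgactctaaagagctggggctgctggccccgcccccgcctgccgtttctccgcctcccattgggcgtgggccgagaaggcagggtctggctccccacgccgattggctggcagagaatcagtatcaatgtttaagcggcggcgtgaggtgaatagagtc
Pcdh18: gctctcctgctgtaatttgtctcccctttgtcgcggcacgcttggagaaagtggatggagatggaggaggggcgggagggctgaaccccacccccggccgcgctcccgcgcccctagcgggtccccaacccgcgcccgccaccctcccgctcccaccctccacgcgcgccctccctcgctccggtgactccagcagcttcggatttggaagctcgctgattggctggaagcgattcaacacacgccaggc
Pcdh20: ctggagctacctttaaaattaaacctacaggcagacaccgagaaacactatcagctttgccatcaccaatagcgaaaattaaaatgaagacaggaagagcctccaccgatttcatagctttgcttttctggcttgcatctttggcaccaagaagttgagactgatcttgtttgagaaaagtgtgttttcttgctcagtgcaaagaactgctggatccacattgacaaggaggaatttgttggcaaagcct
Among 25 windows of 22 non-clustered members, the TATA box was found in 2 (8%, against 12.4% of 32851 windows of all genes), 30 bases before the start of *Pcdh8* and 33 before that of *Pcdh15*. The E-box was found in 3 (12%, against 17.2%), in windows of *Cdh7* and *Pcdh15*. No window was searched for *Cdh1*, *Cdh2*, *Cdh3*, *Cdh4*, *Cdh11*, *Cdh13*, *Cdh16*, *Cdh17*, *Pcdh1* or *Pcdh12*. Whether *Cdh1* itself holds the E-box was therefore not examined. A match is a description of these letters and was not tested as a site. The windows of *Pcdh17*, *Pcdh18* and *Pcdh20* hold neither, and their GC content ran from 42.4% in *Pcdh20* to 68% in *Pcdh18*.

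The type I classical cadherins moved in both directions. *Cdh1* (E-cadherin), the main cadherin of epithelial junctions, was at 9.75, 10.36 and 10.75 on the Wnt4hi arrays and at 8.65, 9.72 and 9.56 on the Wnt4low arrays. It rose by 0.97 (SE 0.37, adjusted p = 0.431), and the lowest Wnt4hi array lay barely above the highest Wnt4low array. The call was lost without Wnt4hi replicate 3 (0.94) or 4 (0.74), without Wnt4low replicate 1 (0.64) or 4 (1.097), under cyclic loess (0.91) and in the unpaired test without moderation. *Cdh2* (N-cadherin), the other cadherin between β-cells, was at 13.36, 13.87 and 13.46 on the Wnt4hi arrays and at 12.28, 13.06 and 13.93 on the Wnt4low arrays. The populations overlapped, with a difference of 0.47 (SE 0.42, adjusted p = 0.792). The difference was 0.89 and past the unadjusted threshold without Wnt4low replicate 4, and 0.06 without Wnt4low replicate 1.

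*Cdh3* (P-cadherin), a cadherin of basal epithelium and placenta, was at 7.83, 7.70 and 7.83 on the Wnt4hi arrays and at 8.81, 8.26 and 8.69 on the Wnt4low arrays. It fell by 0.79 (SE 0.18, adjusted p = 0.169) and kept the unadjusted call in all 20 alternative settings. *Cdh4* (R-cadherin), first known from the retina, was at 7.94, 7.81 and 8.80 on the Wnt4hi arrays and at 7.01, 7.72 and 7.56 on the Wnt4low arrays, without overlap. Its difference of 0.76 did not pass (adjusted p = 0.495) but did in 4 of the 20 alternatives, among them that without Wnt4hi replicate 3 (0.94). It was 0.45 without Wnt4hi replicate 4 and 0.25 for the mean of all its probes, and only 1 of the Wnt4low arrays was well above background. *Cdh15*, the M-cadherin of muscle, stayed between 7.78 and 8.25.

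None of the 11 type II classical cadherins passed the unadjusted threshold on the probes that stand for them. *Cdh6* (K-cadherin), which is known from the developing kidney, was at 8.70, 8.81 and 9.95 on the Wnt4low arrays and at 8.39, 8.48 and 7.83 on the Wnt4hi arrays. Its difference of −0.92 did not pass (adjusted p = 0.474), and it passed in 12 of the 20 alternatives, among them that without Wnt4low replicate 1 (−1.15). Without Wnt4low replicate 4, the highest array, it was −0.52 and did not pass. *Cdh7*, a cadherin of migrating neural crest, was at 10.45, 8.63 and 8.79 on the Wnt4low arrays and between 8.21 and 8.31 on the Wnt4hi arrays. The arrays did not overlap, and Wnt4low replicate 1 stood far above the rest. The difference of −1.02 (SE 0.48, adjusted p = 0.549) was −0.44 without that array, where it passed the unadjusted threshold, as it did without Wnt4low replicate 3 (−1.35). A second, unmeasured probe of *Cdh7* is described with the probes.

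*Cdh11* (OB-cadherin), typical of mesenchyme and osteoblasts, was between 12.53 and 12.60 on the Wnt4hi arrays and between 12.13 and 12.50 on the Wnt4low arrays. Its difference was 0.19 (adjusted p = 0.766), on arrays where 7 of 12 mesenchyme and pericyte markers fell. The other measured members of this type were *Cdh8*, *Cdh9*, *Cdh18*, *Cdh22* and *Cdh24*, which belong mostly to the nervous system, with differences from −0.12 for *Cdh9* to 0.33 for *Cdh8*. *Cdh10*, *Cdh12* and *Cdh20* were not measured, and *Cdh10* was well above background on 2 Wnt4low arrays and on 0 of the Wnt4hi arrays.

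Cadherins outside the classical types did not pass either. *Cdh13* (T-cadherin), which is anchored by a lipid and binds adiponectin, was between 9.84 and 10.86 on the Wnt4hi arrays and between 10.10 and 11.05 on the Wnt4low arrays. *Cdh16* (Ksp-cadherin), known from kidney tubules, was between 11.12 and 11.48 on all 6 arrays, and *Cdh26* between 10.91 and 11.37. *Cdh23*, the partner of *Pcdh15* in tip links, was at 10.29 on Wnt4hi replicate 2 and between 8.91 and 9.45 on the other arrays. *Cdh17*, the cadherin of liver and intestine, was dim on all 6 arrays.

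**Figure D2:**
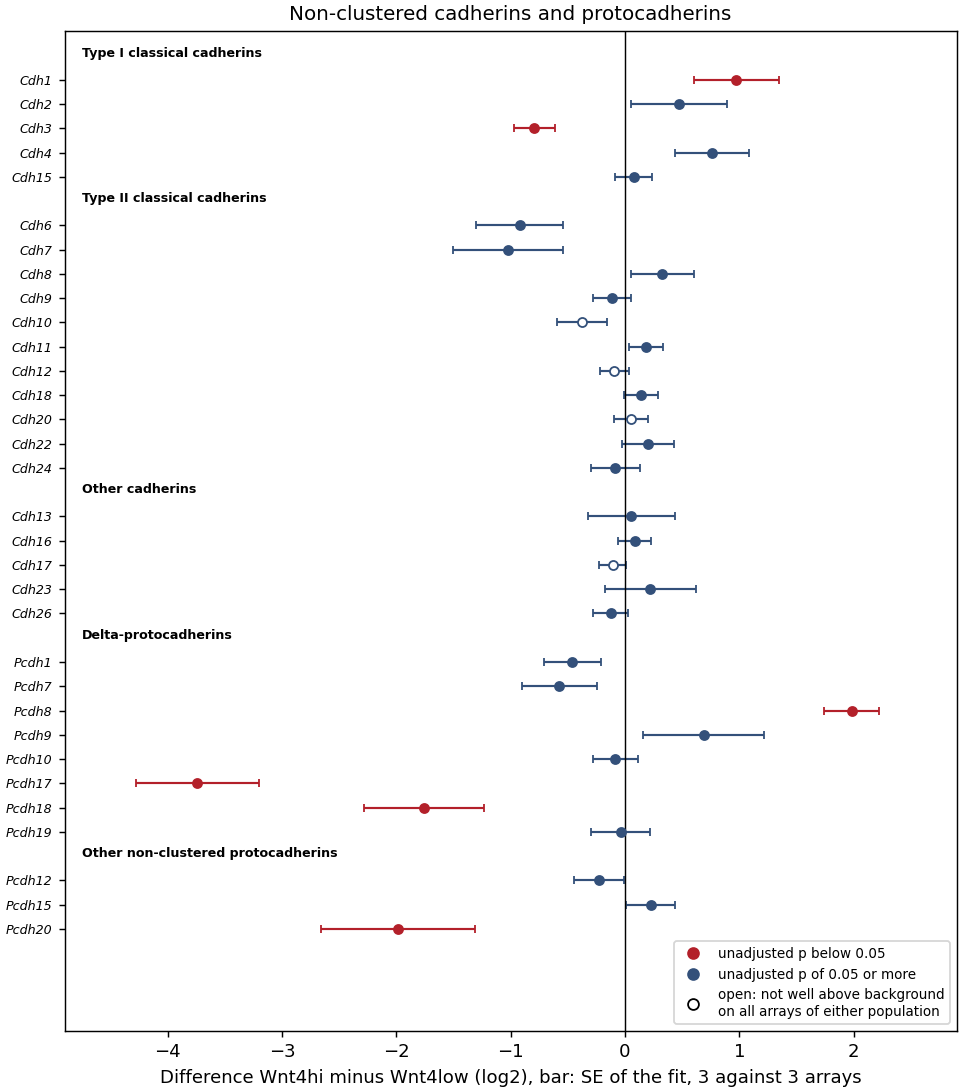
Difference between the populations (horizontal axis, log2, Wnt4hi minus Wnt4low) of the 32 non-clustered members by type, with bars of 1 SE of the fit to 3 against 3 arrays, red for an unadjusted p below 0.05 and open where no probe was well above background on all arrays of a population. *Pcdh17* at −3.74 and *Pcdh8* at 1.98 mark both ends, and most others lie within 1 of zero.

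Clustered protocadherins form combinatorial codes by which neurons recognise their own branches. In the α and γ clusters each variable exon is spliced to constant exons shared by the cluster, whereas the β genes are single exons. The probes' positions were not used here, so whether a probe reads a shared exon, or a similar β gene, is not known. No member of the Pcdha cluster passed, and the 7 on the array differed by −0.19 to 0.16, 6 of them measured. The largest absolute difference was that of *Pcdhac2*, at 7.15, 7.79 and 8.92 on the Wnt4hi arrays and 7.64, 8.33 and 8.45 on the Wnt4low arrays. *Pcdha8* had the highest mean intensity in the cluster and was between 10.29 and 10.90 on the 6 arrays. *Pcdha11*, *Pcdha12* and *Pcdhac1* differed by 0.08, 0.08 and 0.16.

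No member of the Pcdhg cluster passed either, with differences from −0.17 to 0.41 over 6 genes, all measured. *Pcdhga9* stood highest in mean intensity, at 13.39 to 13.67 on the Wnt4hi and 13.25 to 14.06 on the Wnt4low arrays. *Pcdhga1* was at 9.90, 9.29 and 9.41 on the Wnt4hi arrays and at 8.94, 9.33 and 9.11 on the Wnt4low arrays, a difference of 0.41 (adjusted p = 0.597). The differences were 0.28 for *Pcdhgb1*, 0.28 for *Pcdhga10* and −0.13 for *Pcdhga5*.

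In the Pcdhb cluster 18 of 22 genes were below 0 (81.8%, against 36.4% of all features), with a median of −0.26. Of the 10 measured genes 7 were below 0 (70%, against 36.6% of all measured features), and the other 11 are among the 12 genes not measured, whose signs are those of dim probes (36% below 0 over all features not measured). *Pcdhb4* was at 7.53, 8.07 and 8.52 on the Wnt4low arrays and between 7.18 and 7.27 on the Wnt4hi arrays, where it was not well above background. It was at least 1.56-fold lower in Wnt4hi cells, with a measured difference of −0.82 (SE 0.26, adjusted p = 0.321). Without Wnt4hi replicate 3 (−0.81) or Wnt4low replicate 3 (−0.81) the p was just above the threshold. *Pcdhb20* was at 8.92, 8.18 and 9.51 on the Wnt4low arrays and at 7.63, 7.11 and 8.19 on the Wnt4hi arrays, with the highest Wnt4hi array level with the lowest Wnt4low array. It fell by 1.23 (SE 0.41, adjusted p = 0.358). This call was lost without Wnt4hi replicate 2 (−1.22) or 3 (−0.96), without Wnt4low replicate 1 (−1.20) or 4 (−0.91), in the authors' values (−0.82, though not without their column of Wnt4hi replicate 2, at −1.24) and in the unpaired test without moderation.

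*Pcdhb21*, named after its values were seen because it was not measured, was at 7.68, 7.05 and 8.10 on the Wnt4low arrays and between 6.78 and 6.97 on the Wnt4hi arrays. It was well above background on 2 of the Wnt4low arrays and on 0 of the Wnt4hi arrays, so no bound on its fold is given. Its measured difference was −0.70 (adjusted p = 0.445). The call was lost in 10 of 19 alternatives, among them each setting that left out 1 array other than Wnt4low replicate 3 (−0.46 to −0.73). *Pcdhb14*, the highest in mean intensity of this cluster, was at 13.06 on Wnt4hi replicate 2 and between 8.88 and 9.66 on the other 5 arrays. Its difference of 1.02 (SE 1.11, adjusted p = 0.835) rests on that array and was −0.34 without it. *Pcdhb3* differed by −0.44 (adjusted p = 0.61), by −0.64 and past the unadjusted threshold without Wnt4hi replicate 3, and by −0.26 without Wnt4hi replicate 2, and *Pcdhb12* by 0.42 (adjusted p = 0.739), or 0.11 without Wnt4low replicate 4.

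**Figure D3:**
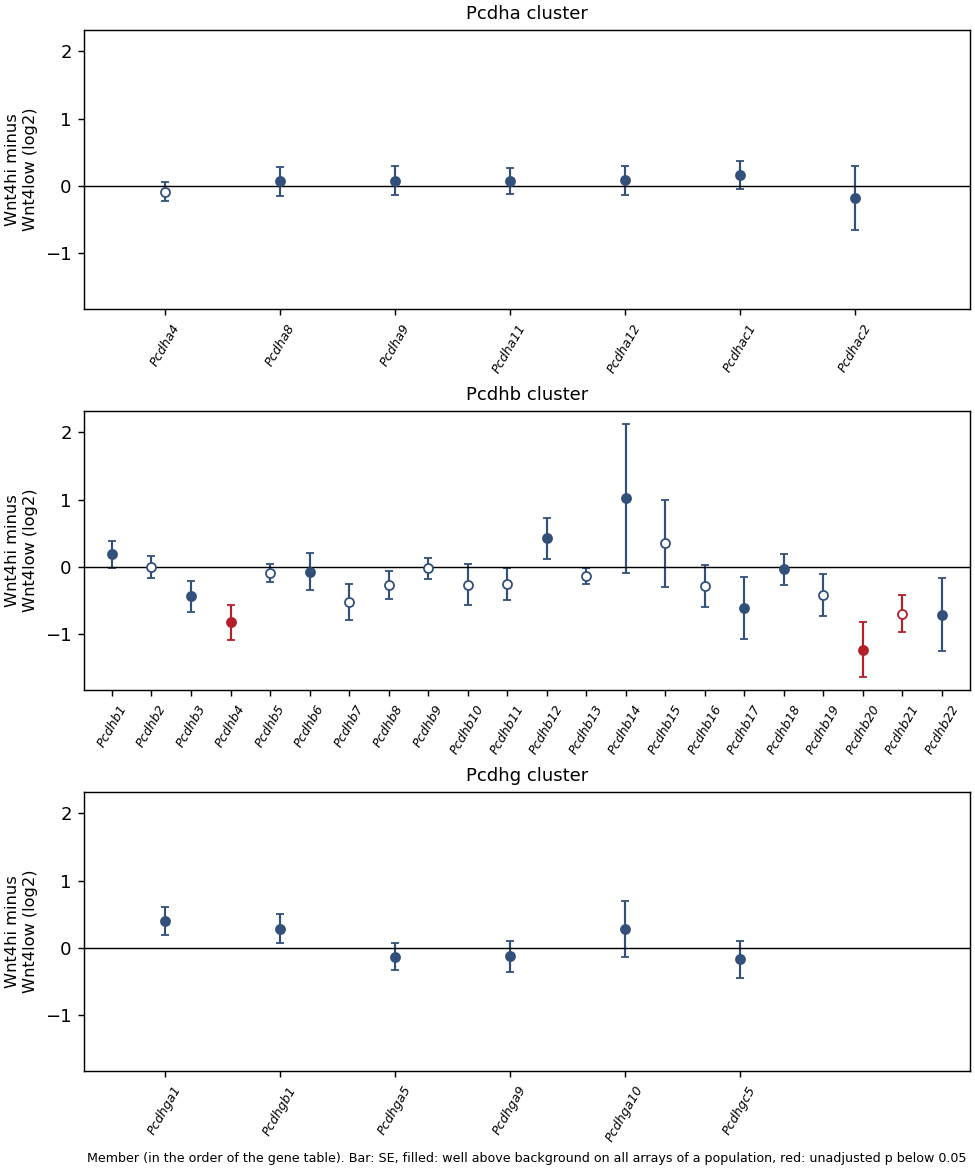
Difference between the populations (vertical axis, log2, Wnt4hi minus Wnt4low) of the clustered protocadherins, 1 panel a cluster in the order of the gene table, with bars of 1 SE, filled where measured and red for an unadjusted p below 0.05. The Pcdha members lie within 0.19 of zero, and in the Pcdhb panel 18 of 22 lie below zero with *Pcdhb20* lowest at −1.23 and the widest bar at *Pcdhb14*.

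Several members had more than 1 probe, and for some of them the probes disagreed. The array held 99 probes of members, and 14 members had more than 1 measured probe. When each of the 56605 probes was tested on its own, 14.1% of the member probes passed the unadjusted threshold, against 11% of all probes. Of these, 3 were higher (3.03%, against 4.88% of all probes) and 11 lower (11.1%, against 6.12%). For 4 members the measured probes differed from each other by more than 1 on the log2 scale. The probes below were singled out after their values were seen.

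A second probe of *Pcdh12* was at 11.78, 10.35 and 10.79 on the Wnt4low arrays and at 8.32, 8.42 and 8.11 on the Wnt4hi arrays. It fell by 2.69 (SE 0.37, adjusted p over all probes = 0.0562), whereas the probe that stood for the gene, listed under the same transcript, differed by −0.23 and overlapped. With the mean of all its probes *Pcdh12* differed by −1.46 and in the authors' values by −1.28, both past the unadjusted threshold. Of the 5 measured *Pcdh15* probes, 1 was at 8.18, 8.82 and 8.79 on the Wnt4hi arrays and at 6.72, 7.04 and 6.87 on the Wnt4low arrays, where it was not well above background. By this probe *Pcdh15* was at least 2.29-fold higher in Wnt4hi cells (measured difference 1.72, SE 0.22, adjusted p over all probes = 0.0476), and by the other 4 it differed by −0.33 to 0.22. The call of this probe after adjustment held in 4 of 12 alternatives, and its unadjusted call in all 12.

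A second probe of *Pcdh19* was at 8.57, 8.18 and 8.48 on the Wnt4low arrays and at 6.77, 7.17 and 7.30 on the Wnt4hi arrays, where it was not well above background. By this probe *Pcdh19* was at least 2.02-fold lower in Wnt4hi cells (measured difference −1.33, adjusted p over all probes = 0.0665), against −0.04 for the probe that stood for the gene. With the mean of all its probes *Pcdh19* differed by −0.68 and in the authors' values by −0.59, both past the unadjusted threshold. The 3 probes of *Pcdh1* differed by −0.84, −0.46 and 0.27, and the first passed the unadjusted threshold (adjusted p = 0.321), except without Wnt4hi replicate 4 (−0.70) and with a replicate block (−0.66). For the other 10 members the measured probes differed by 0.067 to 0.52, and none of their second probes passed. A second probe of *Cdh7*, not measured, was at 9.90, 7.39 and 8.10 on the Wnt4low arrays and at 6.49, 7.47 and 6.54 on the Wnt4hi arrays. The populations overlapped, and its difference of −1.63 (adjusted p over all probes = 0.449) passed the unadjusted threshold there and in 7 of 12 alternatives, and was −0.92 without Wnt4low replicate 1.

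**Figure D4:**
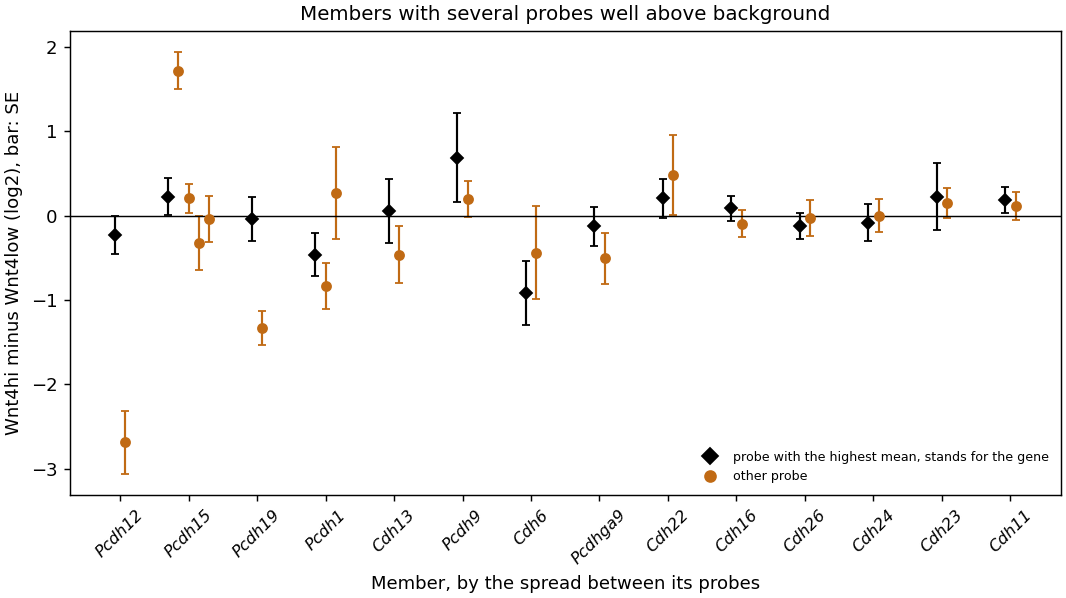
Difference between the populations (vertical axis, log2, Wnt4hi minus Wnt4low) for each measured probe of the 14 members that have more than 1, with bars of 1 SE, black diamonds for the probe that stands for the gene and orange circles for the others. *Pcdh12*, *Pcdh15* and *Pcdh19* each have a probe far from the rest, at −2.69, 1.72 and −1.33.

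Genes that act on or beside cadherins were compared by lists. Beside each list stand all features, of which 5.06% rose and 5.53% fell at the unadjusted threshold, with a median difference of 0.073. Among 9 transcriptional repressors of *Cdh1*, 4 fell in Wnt4hi cells and 0 rose, and the list's median difference was −1.04, against 0.073 over all features. *Snai2* (Slug), the zinc-finger repressor of the mesenchyme, was at 11.30, 11.76 and 12.39 on the Wnt4low arrays and at 9.54, 9.36 and 9.77 on the Wnt4hi arrays. It fell by 2.26 (SE 0.29, adjusted p = 0.0498), and this adjusted call held in 9 of 20 alternatives. *Tcf4* fell by 1.85 and *Zeb1* by 1.34, both without overlap. *Snai1* was well above background on 2 of the Wnt4low arrays and on 0 of the Wnt4hi arrays, so no bound on its fold is given. Its measured difference was −1.04. The unadjusted call of *Snai1* (adjusted p = 0.371) was lost without any one of Wnt4hi replicates 2, 3 and 4 or Wnt4low replicate 1 (−1.01 to −1.08). Without Wnt4low replicate 3 it was −0.67 and passed. *Twist1* stands both in this list and among the mesenchyme markers, and the falls of the mesenchyme, endothelial and leukocyte markers given above go beside these values.

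Of 11 catenins and actin linkers, 2 fell and 1 rose, with a median of −0.33. *Vcl* (vinculin), which strengthens the link of junctions to actin under tension, was at 11.54, 11.56 and 12.54 on the Wnt4low arrays and at 10.41, 9.85 and 10.15 on the Wnt4hi arrays, and it fell by 1.75 (SE 0.32, adjusted p = 0.103). *Ctnna1*, the α-catenin of epithelia, fell by 0.56 (adjusted p = 0.377), a call lost without Wnt4hi replicate 2 (−0.53) or 3 (−0.46) or Wnt4low replicate 4 (−0.43). *Ctnnal1* rose by 0.93 (adjusted p = 0.312), a call lost without Wnt4hi replicate 4 (0.86) or Wnt4low replicate 1 (0.81) and for the mean of all its probes (0.34). *Ctnnb1* (β-catenin), which binds the tail of classical cadherins and carries Wnt signals, was between 13.50 and 14.08 on the Wnt4hi arrays and between 13.60 and 14.38 on the Wnt4low arrays, a difference of −0.33 (adjusted p = 0.765). Of 5 nectins and afadin, *Nectin2* fell by 1.02 (adjusted p = 0.462), a call lost in 5 of the 6 settings that left out 1 array, all but that without Wnt4hi replicate 4 (−0.76 to −1.12), for the mean of all its probes (−0.58) and in the authors' values (−0.54). *Nectin3* was at 14.25 on Wnt4hi replicate 2 and between 10.12 and 11.16 on the other 5 arrays, and it passed the unadjusted threshold with the mean of all its probes alone (1.23).

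Of 12 desmosomal genes 2 passed the threshold, both higher, and the list's median was 0.12, against 0.073 over all features. *Pkp2*, a plaque protein, was at 8.76, 9.24 and 8.93 on the Wnt4hi arrays and at 7.91, 7.72 and 7.90 on the Wnt4low arrays, and it rose by 1.13 (SE 0.17, adjusted p = 0.0677), a call lost in the authors' values (0.32) but not in those without the column of Wnt4hi replicate 2 (0.48), which followed its own array only weakly. *Dsg2*, the desmosomal cadherin of simple epithelia, rose by 1.08 (adjusted p = 0.46), a call lost without Wnt4hi replicate 2 or 3 or Wnt4low replicate 1 or 3 (0.84 to 0.98) and under cyclic loess (1.02). *Pkp4* differed by 0.50 (adjusted p = 0.564), by 0.24 without Wnt4hi replicate 2 and by 0.09 for the mean of all its probes.

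Among 17 further proteins with cadherin repeats, 4 rose and 1 fell, with a median of 0.24. *Cdhr1*, known from photoreceptors, was at 10.14, 10.58 and 9.46 on the Wnt4hi arrays and at 7.99, 8.76 and 8.06 on the Wnt4low arrays, and it rose by 1.79 (SE 0.35, adjusted p = 0.121). *Celsr2*, a cadherin of planar polarity, rose by 1.15 (adjusted p = 0.0702), a call lost for the mean of all its probes (0.39). *Celsr3*, a related cadherin named after its values were seen, was at 11.49, 11.54 and 11.60 on the Wnt4hi arrays and at 9.92, 11.32 and 10.34 on the Wnt4low arrays. It rose by 1.02 (adjusted p = 0.374), a call lost in 5 of the 6 settings that left out 1 array, all but that without Wnt4low replicate 3 (0.72 to 1.04), and in the authors' values (0.50, though not without their column of Wnt4hi replicate 2, at 0.77). *Cdhr2*, a cadherin of microvilli, rose by 0.65, a call lost without Wnt4hi replicate 3 (0.62) or 4 (0.50) or Wnt4low replicate 4 (0.57). *Fat4*, a giant cadherin of planar polarity and growth control, was at 10.65, 11.05 and 11.62 on the Wnt4low arrays and at 10.20, 9.29 and 9.60 on the Wnt4hi arrays, and it fell by 1.41 (adjusted p = 0.184). *Fat2*, the highest in mean intensity of this list, differed by 0.32 (adjusted p = 0.736), or 0.13 without Wnt4low replicate 1.

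Of 8 genes of cadherin proteolysis (median −0.089), *Adam10*, the sheddase that cuts E-cadherin and N-cadherin, fell by 0.62 (adjusted p = 0.28), and *Furin*, which removes their propeptide, differed by −0.17. Of 12 regulators of the clustered protocadherins (median −0.21), the cohesin subunit *Smc1a* fell by 0.46 (adjusted p = 0.356), a call lost without Wnt4hi replicate 2 (−0.36) or 3 (−0.46) or Wnt4low replicate 1 (−0.38) and in the authors' values (−0.30). Of 12 cytoplasmic partners of protocadherins (median −0.052), the kinase *Ptk2b* (Pyk2), which clustered protocadherins inhibit, rose by 0.74 (adjusted p = 0.271) and *Wasf2*, of the WAVE complex, fell by 1.07 (adjusted p = 0.342), a call lost without Wnt4low replicate 1 (−0.95) or 4 (−0.99). *Abi1*, of the same complex and the highest in mean intensity of this list, differed by 0.06.

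**Figure D5:**
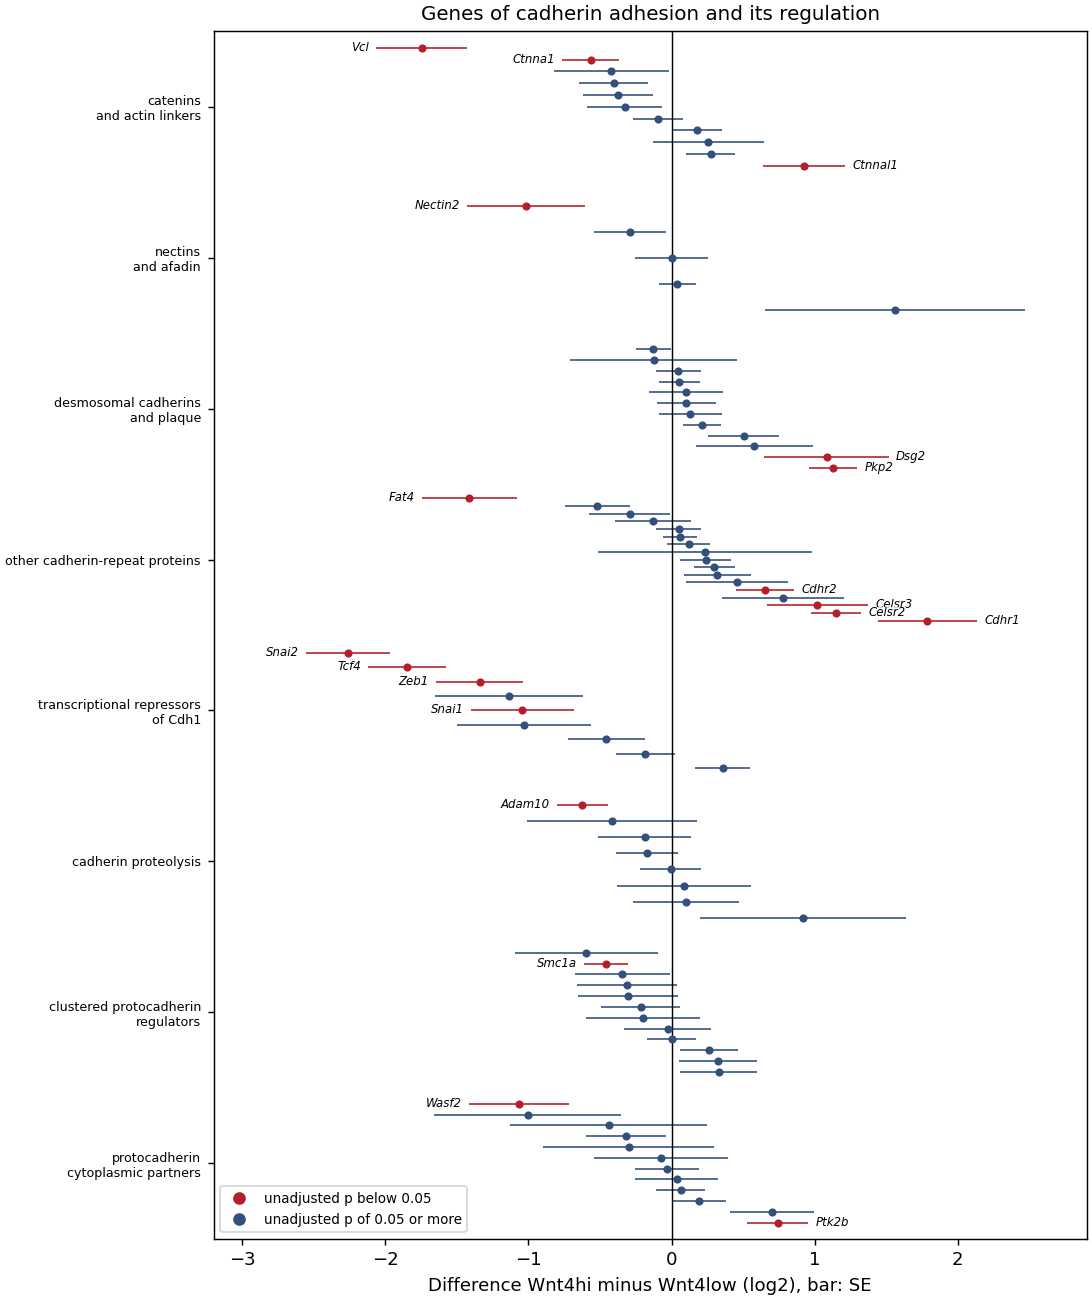
Difference between the populations (horizontal axis, log2, Wnt4hi minus Wnt4low) of each gene in 8 lists of cadherin adhesion and its regulation, with bars of 1 SE, and red with the name for an unadjusted p below 0.05. Repressors of *Cdh1* lie mostly below zero, with *Snai2* lowest at −2.26, and the called desmosomal genes lie above it.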

How the data were processed

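Before labelling, the small RNA yield of each sort was amplified as cDNA, a step that can change the relative level of transcripts. The authors deposited, for each of the 6 arrays, scanner output with the median intensity and local background of each spot in the red channel (Cy5), not normalized, with Feature Extraction 12.0.1.1 in the file header and 9.1 in the labels. A table deposited with them holds log2 values that the authors had normalized, with a median of 8.91 in each column, and how probes were combined in it was not tested. Its column for Wnt4hi replicate 2 correlated with that array at 0.271 over genes after centring, and with Wnt4hi replicate 3 at 0.287. The other columns correlated with their own arrays at 0.843 to 0.872. The table therefore served as an alternative.

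Intensities were corrected with normexp (offset 50), spots marked as outliers (50 to 141 an array) were left out, and quantile normalization, averaging per probe, lmFit and eBayes followed in limma 3.58.1 (R 4.3.3), without covariates and with Benjamini-Hochberg adjustment over 45616 features. Samples were grouped by their labels, and the islets of 3 or 4 pups made each sample. Of 27845 RefSeq probe names, 25126 matched the gene table of GRCm38.p6, from which only names were taken. Bounds (at least N-fold) use, on each array of the dim population, the higher of the probe's own signal and the lowest signal well above background. They are given only where all 3 arrays of the other population were well above background. Between 70.5% and 79.5% of 59305 spots were well above background, 0 were saturated, and the median signal was 10.8 to 15.6 times the background. Precision is limited by the number of arrays.

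The members, lists and tests were chosen with earlier results of these data known. Named are all measured non-clustered members, of each cluster the measured gene with the highest mean and the 4 with the smallest p, of each related list up to 4 genes past the threshold and the gene with the highest mean, and a few marked as named after their values were seen. *Dchs2* and *Cdhr4* were not matched. Lists were described by counts and medians, without a set test. The calculation was tested on simulated data. Alternatives changed the background correction, normalization, dim-probe filter, outlier spots, probe choice, variance model, test, values and replicate block, and left out each array. The replicate numbers 3 and 4 occur in both populations. The other sample groups of the study were not analysed here.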

Additional observations from a re-analysis of the deposited data

How the results depend on the processing

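Most of 20 alternative settings kept the counts of 2 members higher and 7 lower within 1.5 times, whereas the number past adjustment was 1, as reported, in 5 of them, 0 in 11 and 2 in 4. The number higher was 1 under cyclic loess and 1 in an unpaired t-test, which the study names for its other assays and not for the arrays, and ran from 1 to 2 when 1 array was left out. The number lower was 4 in that t-test, ran from 4 to 10 when 1 array was left out, and was 11 when each probe was tested on its own, an alternative chosen after seeing the data that counts probes. The number past adjustment was 0 with the processed intensity, under cyclic loess, with the mean of all probes and in the t-test, 2 with median centring, with dim probes left out (fewer features tested) and in the authors' values less 1 column, the last also chosen after seeing the data, and 0 whenever 1 array was left out (fewer samples). Where it was 2, *Pcdh17* joined *Pcdh8*, and in the authors' values the 1 was *Pcdh17* in place of *Pcdh8*. The cause of the other changes was not tested. Samples numbered 3 and 4 in both populations deviated together with correlations of −0.025 and 0.151 over these 2 pairs, which does not settle whether they share a pool of pups. With the replicate block, 2 members were higher, 7 lower and 0 past adjustment, and with a random replicate block the numbers were 2, 8 and 2. The replicate block also ended the unadjusted calls of *Ctnna1* (−0.61), *Ctnnal1* (0.59), *Nectin2* (−0.59), *Dsg2* (0.78), *Snai1* (−1.02), *Smc1a* (−0.29), *Ptk2b* (0.47), *Celsr3* (0.74) and *Pcdhb21* (−0.61). The t-test also ended those of *Nectin2*, *Dsg2*, *Snai1*, *Wasf2*, *Celsr3* and *Pcdhb21*. Without ending the call, the mean of all probes moved *Tcf4* to −1.17 and *Ptk2b* to 0.48, the authors' values moved *Zeb1* to −0.85, *Ctnnal1* to 0.49 and *Celsr2* to 0.53, and the processed intensity moved *Snai1* to −1.89. Of the named members and related genes past the unadjusted threshold, none changed its sign in these settings, and marker genes were not rerun. Signal over background limits the genes in the dim range, where 17 of the 67 members were not measured.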
